A study of Mus musculus with 14 samples.

Results

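The corticotropin-releasing hormone system was taken as 4 genes: Crh, which encodes the peptide, Crhr1 and Crhr2, which encode its receptors, and Crhbp, which encodes its binding protein. The measured mark was H3K4me3, a trimethylated lysine of histone H3 that sits at promoters which are active or poised, read by chromatin immunoprecipitation and sequencing (ChIP-seq). A summit is a local maximum of the mark in the called peaks. A summit belonged to a gene if it lay inside it or within 2 kb of its boundaries (mm10, RefSeq genes). This gave 31 of the 153207 summits in the deposited table, 5 at Crh, 17 at Crhr1, 4 at Crhr2 and 5 at Crhbp. All 31 lay inside the genes. Adult males of the C57BL/6J strain, 10 to 12 weeks old, gave the tissue, prefrontal cortex. Mice of the SDS10 group (5 libraries) and the SDS30 group (5 libraries) met an aggressive CD1 mouse each day for 10 or 30 days of social defeat, lived beside one between sessions, and were killed 24 hours after the last. Control mice (3 libraries) lived in divided cages with no aggressor, and another label calls this standard housing. Both defeat groups had behavioural tests in the last days of the protocol. Whether each library came from a separate animal is not labelled, and p-values therefore reflect spread among libraries that may be technical.

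As background, corticotropin-releasing hormone starts the hormonal stress response when it is released from the hypothalamus, and in the cortex it is made mainly by inhibitory interneurons. It binds Crhr1, a receptor of the class B family that raises cyclic AMP through Gs. Crhr2 binds the related urocortins more strongly than it binds the hormone itself. Crhbp is a secreted protein that holds the peptide away from its receptors, and in the cortex it is known from interneurons that also make somatostatin. Rodent Crhr2 has alternative first exons, one used mainly in the brain and another mainly outside it.

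The start windows below show where the mark lay relative to the annotated starts of the 3 members matched in a RefSeq table (build GRCm38.p6, whose main chromosomes are those of mm10). Each window runs 5′ to 3′ on the gene's own strand, with 250 bases before the start and 50 after it, and capitals mark CpG dinucleotides, whose density goes with H3K4me3 at start sites.
Crhr1, chr11:104132531-104132830, plus strand: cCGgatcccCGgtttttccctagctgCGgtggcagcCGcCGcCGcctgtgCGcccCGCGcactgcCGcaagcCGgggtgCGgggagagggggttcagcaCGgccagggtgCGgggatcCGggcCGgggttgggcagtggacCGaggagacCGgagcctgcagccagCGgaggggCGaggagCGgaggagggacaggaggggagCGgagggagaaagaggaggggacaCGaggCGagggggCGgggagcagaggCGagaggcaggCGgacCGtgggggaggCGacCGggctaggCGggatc
Crhr2, chr6:55132967-55133266, minus strand: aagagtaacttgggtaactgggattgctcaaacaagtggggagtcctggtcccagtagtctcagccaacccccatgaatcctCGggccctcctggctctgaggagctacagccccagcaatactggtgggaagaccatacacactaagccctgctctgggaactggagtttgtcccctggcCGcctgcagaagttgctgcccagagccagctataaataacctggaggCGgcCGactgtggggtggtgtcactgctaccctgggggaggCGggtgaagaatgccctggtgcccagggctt
Crhbp, chr13:95444782-95445081, minus strand: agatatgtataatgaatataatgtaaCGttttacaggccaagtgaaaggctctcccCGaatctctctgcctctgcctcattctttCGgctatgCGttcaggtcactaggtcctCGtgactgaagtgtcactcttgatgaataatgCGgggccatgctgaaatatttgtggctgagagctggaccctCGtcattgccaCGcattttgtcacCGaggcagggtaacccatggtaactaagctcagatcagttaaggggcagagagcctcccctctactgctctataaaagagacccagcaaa
The Crhr1 window held 31 CpGs, and its nearest summit lay 132 bp from the start. The Crhbp window held 9, with the nearest summit 749 bp from the start, inside the gene. The Crhr2 window held 5, and no summit lay nearer than 14938 bp. Over 32817 start windows of the same length, 30.5% of those with 5 to 9 CpGs and 98.1% of those with 20 or more had a summit within 500 bp of the start. Of the letters searched on both strands (TATAAA for the TATA box, GGGCGG for the GC box, CCAAT for the CCAAT box and TGACGTCA for the cAMP response element, with no overlap of one with another in these windows), TATAAA stood 34 to 39 bases before the Crhr2 start and 30 to 35 bases after the annotated Crhbp start, and GGGCGG stood 8 to 13 bases before the Crhr1 start. CCAAT and TGACGTCA were in none of the 3 windows. Of all windows, 13.6% held TATAAA, 35.6% GGGCGG, 37.4% CCAAT and 1.79% TGACGTCA.

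All 4 genes ranked low among protein-coding genes by their strongest summit, although Crhr1 did not by its summed count. Values are normalised counts, that is, reads at a summit divided by 1 size factor per library, and how wide a window around each summit was counted was not stated. The strongest summit, the one with the highest mean over the 13 libraries, averaged 63.2 ± 11.7 at Crhr1, 61.8 ± 8.99 at Crhr2, 39.2 ± 7.81 at Crh and 34.6 ± 7.66 at Crhbp (SD, n = 13 each). The receptors stood next to each other in this order, and so did Crh and Crhbp, with differences smaller than the spread between libraries. Over the 15248 protein-coding genes with a summit the median was 97.6, and 22.6%, 21.8%, 10.2% and 8.39% of them had a weaker strongest summit than Crhr1, Crhr2, Crh and Crhbp. Among all summits, whose median was 41.3, 71.5% were weaker than that of Crhr1, 70.3% than that of Crhr2, 47.3% than that of Crh and 40.6% than that of Crhbp. The strongest summits of Crhr1 and Crh each also lie inside or within 2 kb of a noncoding gene, so their levels cannot be assigned to these members alone. Crhr1 had the most summits of the 4 genes. Its 17 summits were more than 86.0% of genes had, so that its count summed over summits exceeded that of 71.4% of genes, against 10.5% to 13.1% for the other members. Neighbouring summits lay about a nucleosome apart and can share fragments, so summits of 1 gene are not independent.

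**Figure D1:**
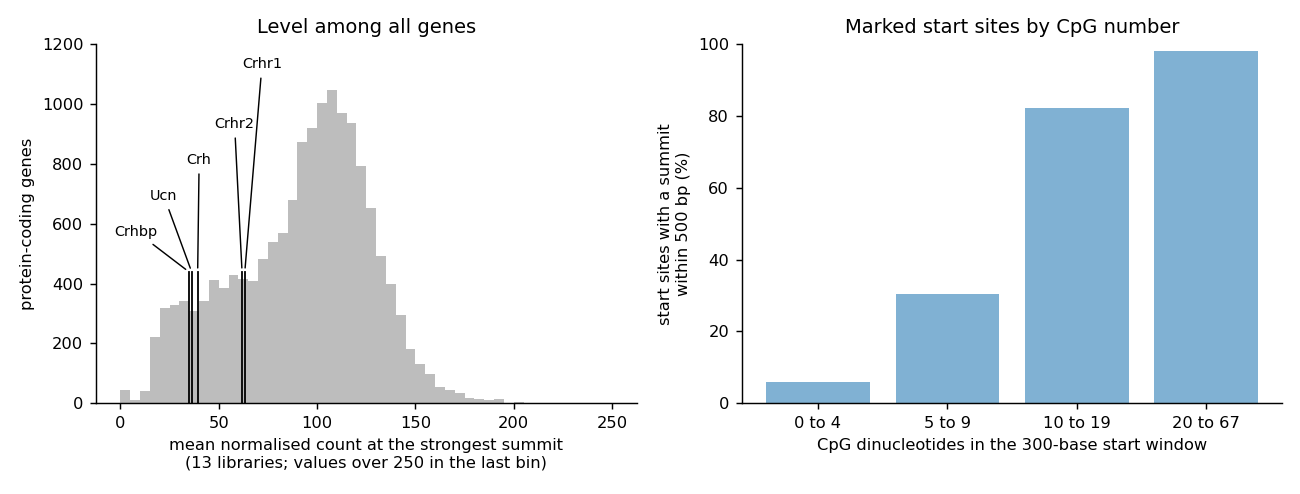
Left, the mean normalised count over 13 libraries at the strongest summit of each protein-coding gene, with Crhbp, Ucn, Crh, Crhr2 and Crhr1 marked below the main mode of the distribution. Right, the percentage of RefSeq start sites with a summit within 500 bp, by the number of CpG dinucleotides in the 300-base start window.

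Each library gave between 4512817 and 10887911 reads on summits, and the totals did not differ detectably between groups (exact permutation tests, two-sided, p = 0.393 for SDS10 against control with n = 5 and 3, 0.786 for SDS30 against control and 0.579 for SDS30 against SDS10). A member summit held 5 to 119 reads in a library. All libraries carry 1 batch date. SDS10 replicate 2 stood apart, with a spread of 40.1 normalised counts over all summits against 29.8 to 33.3 in the other libraries. Among marker genes, all 10 of excitatory neurons, 8 of astrocytes and 6 of endothelial cells had a summit. So did 16 of 19 inhibitory neuron markers, Gad1, Gad2 and Slc32a1 among them but not Sst, Vip or Htr3a. So did 7 of 10 oligodendrocyte markers, 3 of 8 microglia markers, all 8 hypothalamic and all 6 striatal markers, and of 5 liver genes Apoa2, whose summit also lies in Tomm40l. Since markers of other brain regions had summits too, the presence of a summit cannot tell prefrontal cortex from those regions.

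The comparison of SDS10 with control asked whether 10 days of defeat changed the mark at these genes. No member summit passed the test. At the strongest summits the normalised counts averaged 31.9 to 61.4 in SDS10 and 38.3 to 70.5 in control, and all 4 log2 fold changes were below 0, between -0.28 and -0.18, where 46.7% of genes were below 0. None of the 31 had an adjusted p under 0.05 in limma with Benjamini-Hochberg adjustment over 152270 summits (0.0% of all summits), and none by edgeR's quasi-likelihood test or DESeq2. None had an unadjusted p under 0.05 in limma, which 3.21% of all summits had. Groups overlapped at every member summit, and were apart at 2.98% of all summits. Fold changes are on the log2(value + 1) scale, on which changes of low summits come out too small.

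Crh, the ligand, carried 5 summits between 625 and 1454 bp inside the gene from its higher-coordinate boundary (gene: chromosome 3, 19693401 to 19695396). All 5 also lie inside or within 2 kb of the noncoding gene Gm42189, which overlaps Crh, and 4 within 2 kb of Trim55, so their reads cannot be assigned to 1 of these genes. The strongest (chromosome 3, 19694224 to 19694225) had 40.2, 45.2, 25.4, 27.1 and 38.2 in SDS10, 36.0, 35.9, 42.1, 52.2 and 47.1 in SDS30 and 37.0, 35.6 and 48.1 in control. SDS10 replicates 3 and 4 were below every control library and the other 3 lay within the control range. In SDS30 replicate 4 was above every control library and the other 4 lay within that range. The log2 fold change was -0.21 ± 0.25 (SE) in SDS10 against control (95% interval -0.72 to 0.30) and 0.08 ± 0.25 in SDS30 against control (-0.43 to 0.59). Without control replicate 3 the SDS10 value was -0.08, the nearest to 0 when 1 library was left out. Of the 5 summits the smallest unadjusted p was at summit 4, counted from the lower coordinate, in SDS10 (32.6 ± 6.16 against 26.6 ± 1.85 in control, log2 fold change 0.27) and at summit 5 in SDS30 (13.2 ± 5.06 against 19.9 ± 0.979 in control, log2 fold change -0.63). Neither passed the test. Summed over the 5 summits, Crh had 132, 126, 127, 107 and 141 in SDS10, 117, 144, 129, 148 and 143 in SDS30 and 122, 129 and 136 in control, the smallest spread of the 4 members. The means were 127 ± 12.7 in SDS10, 136 ± 12.6 in SDS30 (SD, n = 5 each) and 129 ± 7.07 in control (SD, n = 3). The spread of these sums, 10.0%, 9.26% and 5.48% of the mean, was close to the 8.41% to 9.35% that counting alone gives. The summed log2 fold change was -0.03 ± 0.14 (-0.33 to 0.26) in SDS10 and 0.07 ± 0.14 (-0.22 to 0.37) in SDS30.

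**Figure D2:**
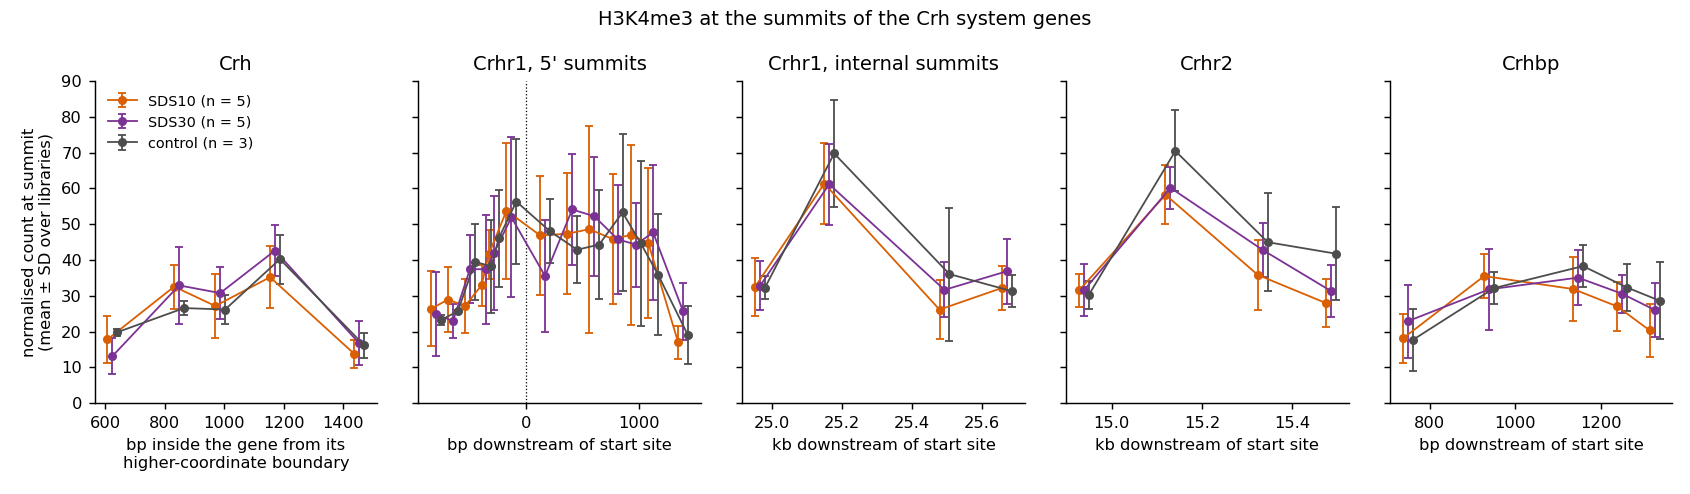
Mean normalised count ± SD (y axis) at each of the 31 summits against its position in the gene (x axis), for SDS10 (n = 5), SDS30 (n = 5) and control (n = 3), with groups shifted sideways for view. The dotted line is the annotated Crhr1 start, and the curves of the 3 groups overlap within their SD at the strongest summit of each gene.

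Crhr1, the main receptor of the hormone, carried the mark in 2 separate places (gene: chromosome 11, 104130463 to 104175523). At its 5′ end, 13 summits ran from 801 bp before to 1396 bp after the annotated start. Another 4 lay 24965 to 25672 bp into the gene, and these stood 270 to 977 bp downstream of the start of Gm35469, a noncoding gene on the opposite strand. All 4 also lie inside Gm35469, so their reads cannot be assigned to 1 of these genes. At the 5′ end the highest mean over the 13 libraries was 53.7 ± 18.5 (SD, n = 13), at the summit nearest the start. The strongest Crhr1 summit (chromosome 11, 104157943 to 104157944) was one of the 4 internal summits. It had 75.5, 63.5, 61.2, 44.0 and 62.6 in SDS10, 47.0, 54.7, 59.9, 76.1 and 68.1 in SDS30 and 59.4, 86.9 and 63.0 in control. Control replicate 2 was the highest of all and the groups overlapped. The log2 fold change was -0.18 ± 0.21 (SE; 95% interval -0.60 to 0.23) in SDS10 against control and -0.19 ± 0.21 (-0.60 to 0.23) in SDS30 against control. Of the 17 summits, 10 were below 0 in each of these comparisons, with ranges of -0.54 to 0.34 and -0.51 to 0.45. The smallest unadjusted p-values were at summit 3, counted from the lower coordinate, in SDS10 (27.2 ± 7.55 against 39.5 ± 10.6 in control) and at summit 7 in SDS30 (35.6 ± 15.6 against 48.0 ± 8.97 in control), with adjusted p-values of 0.999946 and 0.999979 in limma. Their log2 fold changes were -0.54 and -0.51.

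Summed counts at the 5′ end spanned a wider absolute range between libraries than those at the internal place, but they are larger and cover more summits. Spread relative to the mean was not compared between the places. The 13 summits at the 5′ end summed to 470.0, 782, 467, 371 and 453 in SDS10, 562, 415, 408, 471 and 754 in SDS30 and 351, 638 and 563 in control. The highest were SDS10 replicate 2 and SDS30 replicate 5 and the lowest control replicate 1, so the groups overlapped. The 4 internal summits summed to 179, 155, 152, 125 and 149.6 in SDS10, 179, 164, 133, 176 and 162 in SDS30 and 177, 175 and 157 in control, a narrower range in each group. The internal share of the Crhr1 count was 23.8% ± 4.19 in SDS10, 24.4% ± 4.15 in SDS30 (SD, n = 5 each) and 25.6% ± 6.82 in control (SD, n = 3). Exact permutation tests, two-sided, did not separate the groups (p = 0.679 for SDS10 and 0.786 for SDS30 against control, 0.778 for SDS30 against SDS10; adjusted p = 0.786 over the 3 tests), and this division of the gene was chosen after its summits were seen. Without SDS10 replicate 2, whose share was 16.6%, the SDS10 share was 25.6% ± 1.35 (SD, n = 4), and SDS30 lay below SDS10 instead of above it, again with no separation (exact permutation tests, two-sided, p = 1 against control and 0.651 for SDS30 against SDS10), a setting chosen after seeing the data. Summed over all 17 summits, the log2 fold change was -0.06 ± 0.19 (-0.46 to 0.33) in SDS10 and -0.01 ± 0.19 (-0.40 to 0.39) in SDS30. The SDS10 value was -0.199 without SDS10 replicate 2. It ranged to -0.242 when control replicate 1 was left out, and to 0.0674 when control replicate 2 was. The spread of the sum was 24.9% of the mean in SDS10, 21.9% in SDS30 and 21.1% in control, where counting gives 3.66% to 4.15%.

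Across libraries the 5′ count of Crhr1 correlated with inhibitory, striatal and excitatory neuron marker sums by Pearson's r after adjustment, and by rank with the inhibitory sum alone. A marker sum is the sum of the counts at the strongest summit of each marker gene. Genes with strong summits weigh more in it (control mean 79.1 at Prox1 and 25.2 at Gad1, both inhibitory neuron markers). These relations were looked for after the spread of the 5′ count was seen. The share of all genes that follow the 5′ count as closely was not examined, so no relation is shown to be particular to a list. The libraries share depth and composition, and the p-values below test only against no correlation. SDS10 replicate 2 and SDS30 replicate 5, the highest at the Crhr1 5′ end, had 775 and 691 over the 10 excitatory neuron markers, against 458 to 580.3 in the other 11 libraries. Over 13 libraries the log2 5′ sum correlated with the log2 sum of the 16 inhibitory neuron markers at Pearson's r = 0.87 (permutation test, p = 9e-05, adjusted p = 0.00162 over 18 relations) and Spearman's rho = 0.94 (p = 1e-05, the smallest that 100000 permutations can give; adjusted p = 0.00018). Without SDS30 replicate 5 and SDS10 replicate 4, the libraries farthest from the median of the markers, r was 0.81, without SDS10 replicate 2 it was 0.93, and over deviations from the group means it was 0.89. For excitatory markers r was 0.73 (permutation p = 0.00425, adjusted p = 0.0255; rho = 0.59, permutation p = 0.0358, adjusted p = 0.19), but 0.29 without SDS10 replicate 2 and SDS30 replicate 5, so that this relation rests on those libraries. For striatal neuron markers r was 0.74 (permutation p = 0.00293, adjusted p = 0.0255; rho = 0.60, permutation p = 0.0336, adjusted p = 0.19; r = 0.69 without the 2 farthest), and for endothelial markers -0.58 (permutation p = 0.0399, adjusted p = 0.144; rho = -0.56, permutation p = 0.0527, adjusted p = 0.19; r = -0.42 without the 2 farthest). For hypothalamic neuron markers r was 0.37 (permutation p = 0.217, adjusted p = 0.364; rho = 0.38, permutation p = 0.202, adjusted p = 0.455; r = 0.24 without the 2 farthest). The internal sum gave r = 0.42 with inhibitory markers (permutation p = 0.16, adjusted p = 0.364; rho = 0.26, permutation p = 0.398, adjusted p = 0.669; r = 0.30 without the 2 farthest). For the 5′ sum, r over deviations from the group means was 0.839 with striatal, 0.755 with excitatory and 0.47 with hypothalamic markers. Without SDS10 replicate 2 these lists gave r = 0.612, 0.593 and 0.513. Differences between the lists were not tested. The inhibitory marker sums ranged from 598 to 692 in SDS10, 614 to 763 in SDS30 and 607 to 715 in control. The part of neuron content in the Crhr1 values was not tested. In a tissue sample, fewer cells of a type and less of the mark per cell cannot be told apart.

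**Figure D3:**
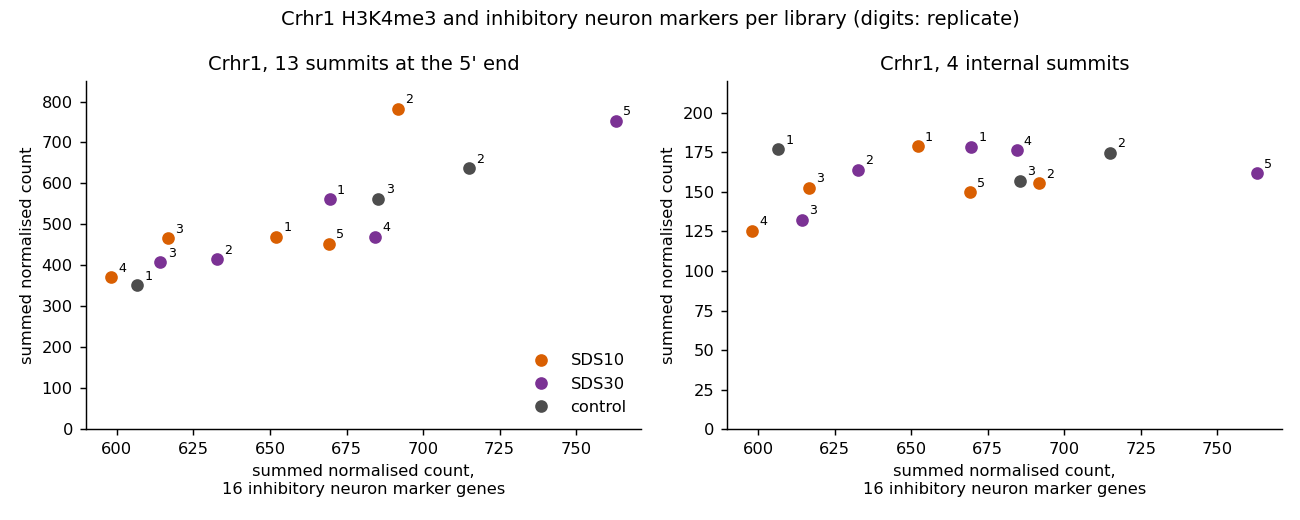
Summed normalised count at the 13 Crhr1 summits of the 5′ end (left) and at the 4 internal summits (right) against the summed count of 16 inhibitory neuron marker genes, 1 point per library, coloured by group and labelled by replicate. The 5′ sums are highest in SDS10 replicate 2 and SDS30 replicate 5, and the y axes start at 0 and differ in scale.

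Crhr2, the receptor that prefers urocortins, carried 4 summits in 1 cluster 14938 to 15486 bp downstream of the annotated start (gene: chromosome 6, 55090048 to 55133016). The strongest (chromosome 6, 55117885 to 55117886) had 49.2, 57.9, 70.6, 52.5 and 61.0 in SDS10, 60.3, 62.5, 57.8, 52.2 and 68.1 in SDS30 and 60.1, 82.5 and 68.8 in control. In SDS10 3 of 5 libraries and in SDS30 2 of 5 were below the lowest control library, and control replicate 2 was the highest of all, but the groups overlapped. Its log2 fold change was -0.27 ± 0.19 (SE; -0.65 to 0.11) in SDS10 against control and -0.22 ± 0.19 (-0.60 to 0.17) in SDS30 against control. Of all member summits, the smallest unadjusted p in SDS10 was at another summit of this cluster, chromosome 6, 55117529 to 55117530, with 28.0 ± 6.58 in SDS10 against 41.8 ± 13.05 in control (log2 fold change -0.54, adjusted p = 0.999946 in limma), and the same summit had the smallest p of the cluster in SDS30 (31.4 ± 7.26, log2 fold change -0.38). Summed over the 4 summits Crhr2 had 139, 165, 166, 124 and 174 in SDS10, 184, 170.3, 143, 149.7 and 183 in SDS30 and 153, 232 and 178 in control. The groups overlapped, with means of 154 ± 21.2 in SDS10, 166 ± 18.8 in SDS30 (SD, n = 5 each) and 188 ± 40.4 in control (SD, n = 3). The SDS10 value of -0.28 ± 0.16 (-0.62 to 0.07) was the largest summed change of the 4 members in either comparison with control, and did not pass (adjusted p = 0.997 in limma over 15248 genes). It ranged from -0.41 to -0.11 when 1 library was left out, and was nearest to 0 without control replicate 2.

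**Figure D4:**
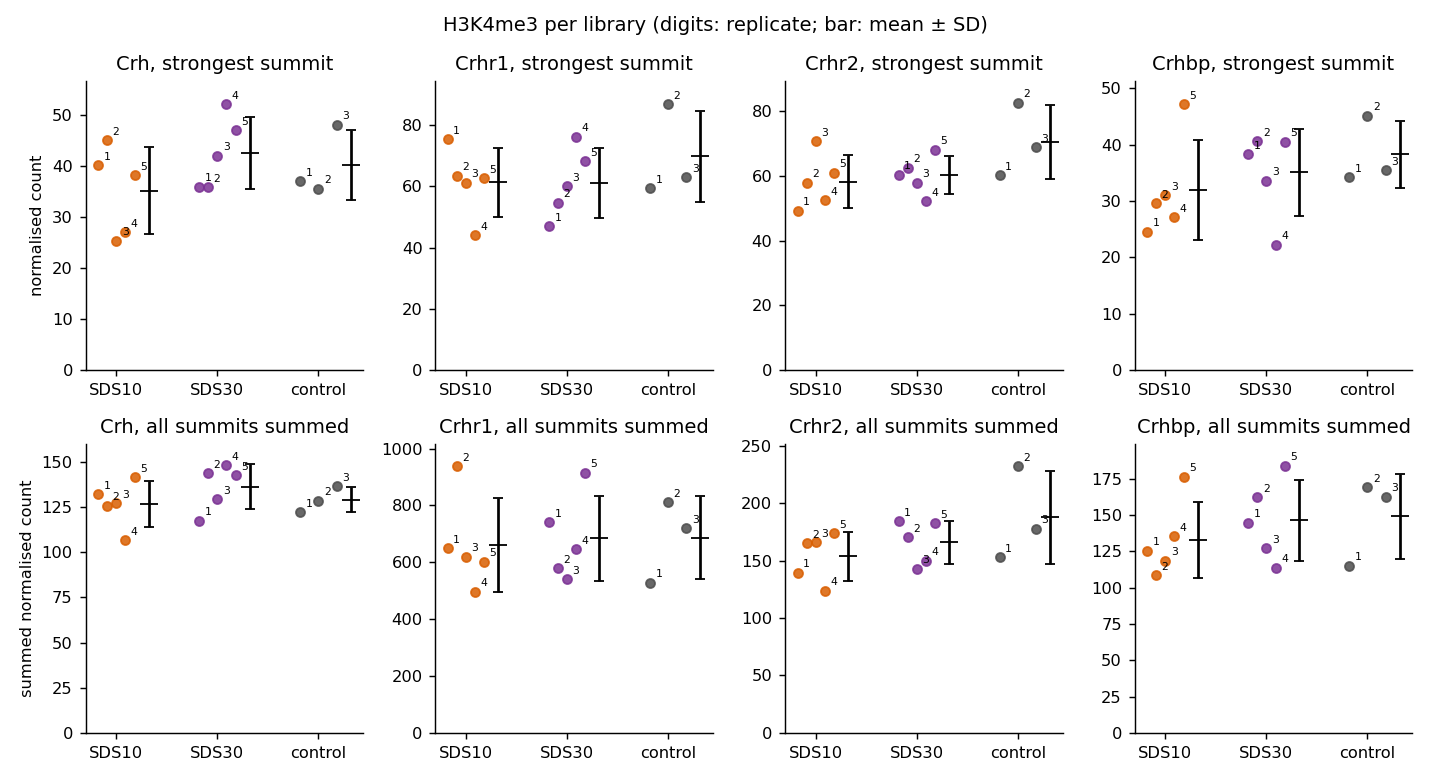
Normalised count at the strongest summit (top row) and summed over all summits (bottom row) of each gene, 1 point per library labelled by replicate, with the mean and SD of SDS10 (n = 5), SDS30 (n = 5) and control (n = 3) beside the points. In each panel the ranges of the groups overlap.

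Crhbp, the binding protein, carried 5 summits 749 to 1326 bp downstream of its start (gene: chromosome 13, 95431376 to 95444831). The strongest (chromosome 13, 95443683 to 95443684) had 24.6, 29.6, 31.1, 27.1 and 47.2 in SDS10, 38.4, 40.6, 33.7, 22.2 and 40.6 in SDS30 and 34.2, 45.2 and 35.5 in control. In SDS10, 4 of 5 libraries were below every control library and replicate 5 was above all of them. The log2 fold change was -0.28 ± 0.27 (SE; -0.83 to 0.27) in SDS10 against control and -0.14 ± 0.27 (-0.69 to 0.40) in SDS30 against control. Without SDS10 replicate 5 the first value was -0.428, still with no call (adjusted p = 1.0 in limma). Within the cluster the smallest p-values were at the summit farthest from the start in SDS10 (20.4 ± 7.40 against 28.7 ± 10.8 in control, adjusted p = 0.999946 in limma) and at the one nearest to it in SDS30 (22.9 ± 10.2 against 17.7 ± 8.55 in control, adjusted p = 0.999979 in limma), with log2 fold changes of -0.48 and 0.39. Summed over the 5 summits it had 126, 109, 119, 136 and 176 in SDS10, 145, 162, 127, 114 and 184 in SDS30 and 115, 169 and 163 in control, and the groups overlapped. The means were 133 ± 26.2 in SDS10, 146 ± 27.9 in SDS30 (SD, n = 5 each) and 149 ± 29.5 in control (SD, n = 3), with log2 fold changes of -0.16 ± 0.19 (-0.57 to 0.24) and -0.03 ± 0.19 (-0.43 to 0.38). Like Crhr1, it varied between libraries of a group beyond counting error, by 19.7%, 19.03% and 19.8% of the mean in SDS10, SDS30 and control, where counting gives 7.88% to 9.16%. The Crhr2 sum did so too, by 13.8%, 11.3% and 21.5% of the mean, where counting gives 6.97% to 8.51%.

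After 30 days of defeat the picture at the members was the same in its calls: none of the 31 summits passed in SDS30 against control (adjusted p = 0.999979 in limma for each; 0.0% of all summits passed), and none had an unadjusted p under 0.05, where 3.41% of all summits did. edgeR and DESeq2 called none either. The groups overlapped at all 31, and were apart at 2.96% of all summits. None of the 4 summed counts passed in SDS10 or SDS30 (0.0% of genes in each), and their groups overlapped, where 4.05% of genes had groups apart in SDS10 and 2.28% in SDS30. The fold change was below 0 at 20 of 31 in SDS10 and 19 of 31 in SDS30, against 49.7% and 49.2% of all summits. The median over the members was -0.11 and -0.05, beside 0.00 and 0.00 over all summits. The comparisons share the control libraries. For 24 of 31 summits in SDS10 and 26 of 31 in SDS30, the 95% interval lay inside -1 to 1 on the log2 scale, as it did at 83.5% and 85.2% of all summits. Changes within these intervals are compatible with the values, and the size of change that could be detected at these summits was not worked out. The intervals are not adjusted for the 152270 summits tested, so larger changes may also have gone uncalled.

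The comparison of SDS30 with SDS10 asked whether the durations differed. At the strongest summits, SDS30 averaged 42.7 ± 7.08 against 35.2 ± 8.58 in SDS10 at Crh, 61.2 ± 11.4 against 61.4 ± 11.2 at Crhr1, 60.2 ± 5.86 against 58.2 ± 8.29 at Crhr2 and 35.1 ± 7.72 against 31.9 ± 8.87 at Crhbp (SD, n = 5 each). The log2 fold changes were 0.29 ± 0.22, -0.00365 ± 0.18, 0.05 ± 0.16 and 0.14 ± 0.23 (SE). Of the 31 summits 21 were above 0 (49.9% of all summits), none passed (adjusted p 0.963 to 0.999 in limma; 0.0% of all summits passed), none had an unadjusted p under 0.05 (5.12% of all summits did), and none had groups apart (0.72% of all summits). edgeR and DESeq2 called none. The 95% interval lay inside -1 to 1 at 29 of 31, as at 91.4% of all summits. Of the 4 sums none passed (0.0% of genes) and all overlapped, where 0.964% of genes had groups apart, with log2 fold changes of 0.11 ± 0.12 at Crh, 0.06 ± 0.16 at Crhr1, 0.11 ± 0.14 at Crhr2 and 0.14 ± 0.17 at Crhbp (SE). The smallest unadjusted p was at Crhr1 summit 3, with 37.5 ± 9.52 in SDS30 against 27.2 ± 7.55 in SDS10 (log2 fold change 0.46, adjusted p = 0.963 in limma). Its mean was lowest in SDS10 of the 3 groups, and SDS10 against control uses the same SDS10 libraries. For Crh, Crhr2 and Crhbp the smallest p-values of this comparison stood at Crh summit 2, Crhr2 summit 2 and Crhbp summit 1, with log2 fold changes of 0.29, 0.27 and 0.37.

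**Figure D5:**
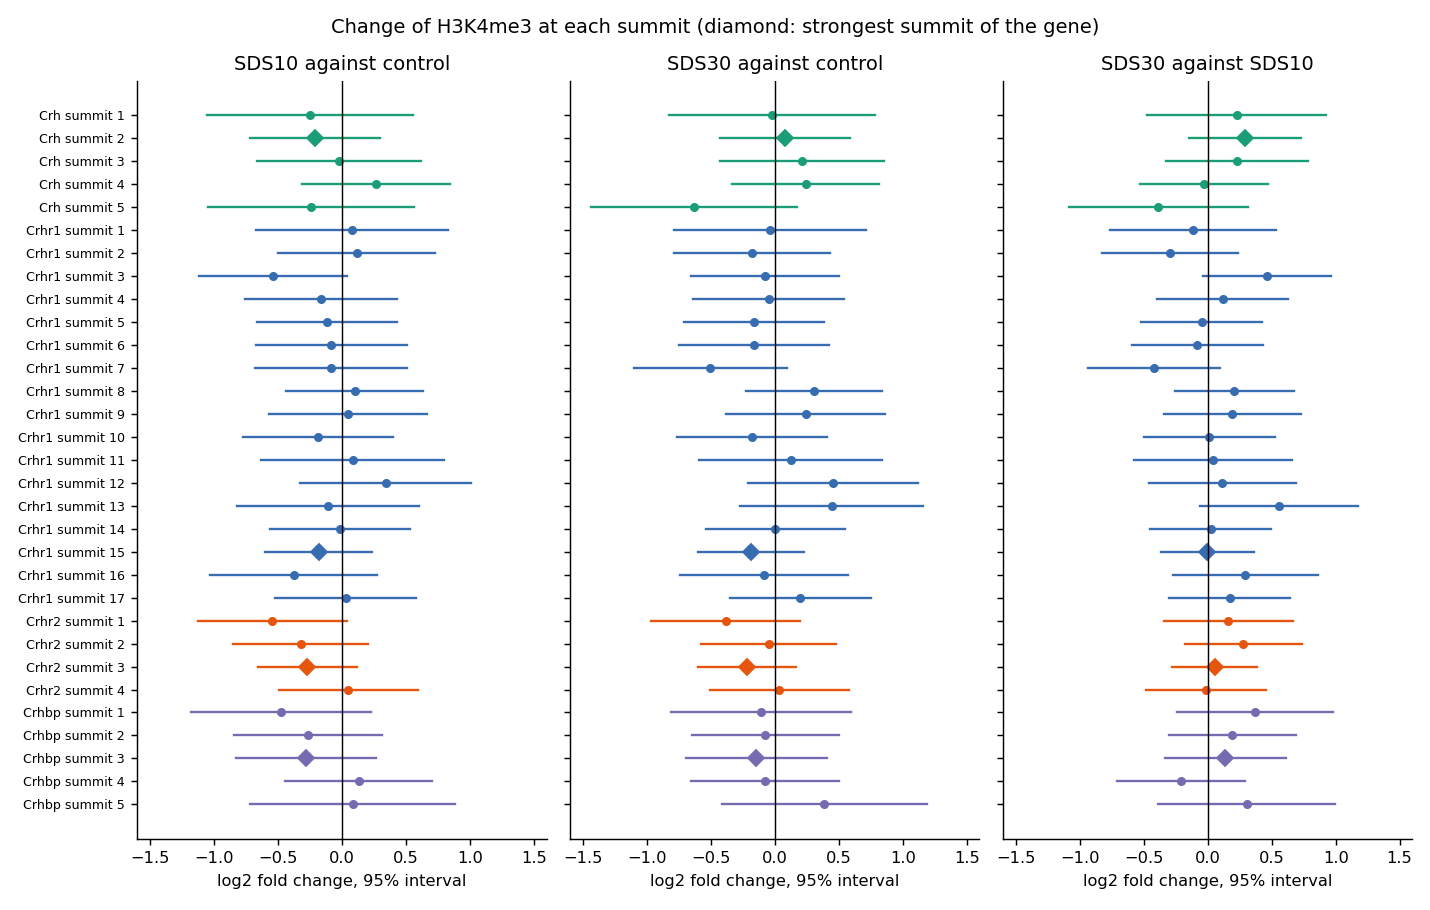
Log2 fold change with its 95% interval (limma, log2(value + 1) scale) at each of the 31 summits, numbered from the lower coordinate within a gene, for SDS10 against control, SDS30 against control and SDS30 against SDS10, with diamonds for the strongest summit of each gene. Every interval includes 0.

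Of the other ligands of these receptors, the urocortins, Ucn had 9 summits and Ucn2 and Ucn3 had no called summit inside or within 2 kb. All 9 also lie inside or within 2 kb of Trim54 and of the noncoding gene Gm15469, so their reads cannot be assigned to 1 of these genes. Summits 1 to 5, counted from the lower coordinate, lie outside Ucn, beyond its 3′ end. The strongest Ucn summit (chromosome 5, 31138258 to 31138259) had 18.05, 38.1, 26.4, 49.1 and 28.5 in SDS10, 36.8, 29.7, 29.4, 29.9 and 55.1 in SDS30 and 30.7, 45.2 and 52.7 in control, with overlapping groups. Its log2 fold change was -0.45 ± 0.29 (SE; -1.05 to 0.15) in SDS10 against control and -0.25 ± 0.29 (-0.85 to 0.35) in SDS30 against control, with adjusted p-values of 0.999946 and 0.999979 in limma. Its summed count was 238 ± 40.7 in SDS10, 257 ± 67.1 in SDS30 (SD, n = 5 each) and 268 ± 52.7 in control (SD, n = 3), with the highest value of each defeat group in SDS10 replicate 2 and SDS30 replicate 5, as at the Crhr1 5′ end. Of all start windows, 1.79% held the cAMP response element, the site of the factors activated by the pathway of these receptors. Among the windows searched, those of Ucn, Crhr1, Crhr2 and Crhbp, only that of Ucn held it, 37 to 44 bases before the start. No Crh window was available to search. The Ucn site is given here in capitals with its flanks (chr5:31138924-31138947, minus strand, GRCm38.p6).
Ucn: ttcttcgcTGACGTCAgtcggagc

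The rest of the pathway, read at each gene's strongest summit, gave no call in either comparison with control. The median log2 fold change over all genes was 0.01 in SDS10 and -0.07 in SDS30, with 46.7% and 65.9% of genes below 0. No gene passed the adjusted test (0.0%), and 2.8% in SDS10 and 4.91% in SDS30 had an unadjusted p under 0.05. Among 10 genes that process and store peptide precursors, all with a summit, 4 were below 0 in SDS10 (median 0.07) and 8 in SDS30 (median -0.06). The smallest p-values were at Scg5, a chaperone of a prohormone convertase, Chgb and Chga, granins of secretory granules, Pam, which amidates peptides, and Cpe, which trims them. In SDS10 Scg5 had 62.1 ± 12.0 against 73.9 ± 13.9 in control, Chgb 51.2 ± 18.6 against 41.3 ± 16.7 and Pam 104 ± 8.59 against 95.2 ± 10.4 (SD, n = 5 and 3). In SDS30 Cpe had 85.3 ± 18.3 against 97.8 ± 12.3 in control, Scg5 66.4 ± 10.9 against 73.9 ± 13.9 and Chga 45.2 ± 16.2 against 53.4 ± 22.6.

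All 36 genes of receptor coupling and cyclic AMP signalling had a summit. In SDS10 24 were above 0 (median 0.05) and in SDS30 11 (median -0.10), with 0 called and 1 and 2 at an unadjusted p under 0.05. Prkar1b, a regulatory subunit of protein kinase A, had 87.0 ± 18.7 in SDS10 against 116 ± 8.25 in control (-0.43 ± 0.17, log2 fold change with SE). Another regulatory subunit, Prkar1a, had 121 ± 25.4 against 100.9 ± 15.8, and Grk6, a kinase that desensitises receptors, 105 ± 5.96 against 89.8 ± 12.2. In SDS30 Gna11, a G protein of the Gq class, had 89.5 ± 8.53 against 116 ± 15.8 in control (-0.37 ± 0.16). Adcy5, an adenylyl cyclase, had 65.7 ± 15.0 against 89.7 ± 12.6 (-0.46 ± 0.20), and Grk6 108 ± 7.93 against 89.8 ± 12.2. None of these passed the adjusted test in limma.

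Of 19 genes of the hypothalamic-pituitary-adrenal axis and its glucocorticoid response, 16 had a summit and Mc2r, Avpr1b and Hsd11b1 did not. In SDS10 9 were above 0 (median 0.02) and in SDS30 7 (median -0.02). In SDS10 the smallest p-values were at Sgk1, a kinase induced by glucocorticoids (0.29 ± 0.19 on the log2 scale, SE), Klf9, a glucocorticoid target (0.23 ± 0.16), and Nr4a1, an early response factor that acts on Crh and Pomc (-0.25 ± 0.19). In SDS30 they were at Fkbp5, a brake on the glucocorticoid receptor (-0.42 ± 0.19), and at the peptide genes Avp (-0.52 ± 0.39) and Oxt (0.45 ± 0.33). Of 13 class B peptide receptors, relatives of Crhr1 and Crhr2, 11 had a summit, with 7 below 0 in SDS10 (median -0.18) and 7 in SDS30 (median -0.06). Gipr, Gcgr and Calcr, receptors of gut, pancreatic and thyroid peptides, had -0.55 ± 0.37, -0.50 ± 0.32 and -0.48 ± 0.36 in SDS10. In SDS30 Gcgr, Gipr and the parathyroid hormone receptor gene Pth1r had -0.46 ± 0.32, -0.28 ± 0.37 and 0.13 ± 0.19. The summits of Gipr, Gcgr and Calcr were weak, with control means of 30.2, 35.4 and 21.9, as were those of Avp (29.9) and Oxt (20.1). Of 12 factors that act on Crh or its regulation, 6 were below 0 in SDS10 and 10 in SDS30 (medians -0.03 and -0.16). Fos, an early response factor, was among the smallest p-values in both, at 0.23 ± 0.16 in SDS10 and 0.25 ± 0.16 in SDS30, with Nr4a1 in SDS10 and Yy1, a zinc finger factor, in SDS30 (-0.44 ± 0.18). No member of any list had an adjusted p under 0.05 in limma.

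As a description, the genes whose strongest summit varied most like a member's over the 13 libraries were picked by Pearson's r of the log2 counts among 14484 genes. They were Dedd (r = 0.90), N4bp3 (r = 0.88) and Nup54 (r = 0.87) for Crh, Gclm (r = 0.89), Rps9 (r = 0.87) and Xkr5 (r = 0.84) for Crhr1, Sec14l5 (r = 0.81), Prss22 (r = 0.80) and Gak (r = 0.80) for Crhr2 and Greb1 (r = 0.85), Hoxa9 (r = 0.77) and Eya2 (r = 0.76) for Crhbp. Since they are the highest of many over few libraries that share depth and composition, no p is given. For Crhr1 the summit used was the internal one, shared with Gm35469. Among the members themselves Crhr2 and Crhbp were the most alike (r = 0.72), followed by Crh and Crhr1 (r = 0.47), and the other 4 pairs lay between -0.15 and 0.29.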

How the data were processed

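H3K4me3 ChIP-seq of mononucleosomes released with micrococcal nuclease was analysed in 13 libraries, with 100-base single reads and 6 to 8 PCR cycles, per the labels' protocols. The input library was not analysed here. The submitters' processing notes name Trimmomatic, Bowtie2, MACS2, DESeq2 and the builds mm10 and GRCm38.p5, with no role, version or setting. The deposited table gives a signal per summit, reads divided by 1 size factor per library by the authors, and 100% of the values were whole reads after division by each library's step (tolerance 0.001 reads). The deposited peak score has no stated scale and entered no test.

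Values were tested as log2(value + 1) with limma 3.58.1 (R 4.3.3), with trend, in 1 fit of all 13 libraries without a covariate. Benjamini-Hochberg adjustment ran over 152270 summits (937 left out by filterByExpr of edgeR) or over 15248 protein-coding genes for sums within 2 kb, at a threshold of 0.05. The steps were run on simulated counts with known changes, and how many of these were recovered is not given here. Alternatives were edgeR 4.0.16 and DESeq2 1.42.0 on the recovered reads, other scalings, pseudocounts, filters and distances, depth as a covariate, a replicate block, fits of 2 groups and leaving out each library. No 2 libraries of the same group agreed within sampling noise. PCR reads carry no molecular identifiers, so counting errors cover counting only. Named by rule were each member's strongest summit and its summit with the smallest p in each comparison, the urocortins, the 3 genes of smallest p in each pathway list, and the 3 genes most like each member. The values of 1 gene that this rule names are not reported here. All 170 symbols of the members and lists matched the RefSeq gene table, and 3 of the 4 members its table of start windows, with Crh not matched there. The members and lists were chosen with earlier results of these data known.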

Additional observations from a re-analysis of the deposited data

Results flagged for a closer look

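Of 42 groups of 5 libraries examined, 5 held a library whose distance to its nearest neighbour took up more of the group's range than Dixon's critical value of 0.71 allows, where chance gives about 1 in 20. The groups share libraries and summits, so the 5 are not independent and cannot be set against that rate. SDS10 replicate 2 had 782 at the 13 Crhr1 summits of the 5′ end and an internal share of 16.6%, the lowest of its group. SDS10 replicate 5 had 47.2 at the strongest Crhbp summit, above the other SDS10 libraries. SDS30 replicate 5 had 55.1 at the strongest Ucn summit and 377 summed over the Ucn summits, each the highest of its group. SDS10 replicate 2 and SDS30 replicate 5 were also the 2 libraries with the highest sums over excitatory neuron markers, and the part of this in the flagged values was not tested.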

How the results depend on the processing

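The log2 fold changes of the 4 members at their strongest summit and summed, 24 in all, were compared with 600 values from 13 other settings and from leaving out each of the 13 libraries. No summit and no gene was called in any of them, and 568 values kept their direction. The smallest adjusted p was 0.625. Outside the omission of libraries, direction changed for SDS30 against SDS10 at the strongest Crhr1 summit (-0.00365), which was 0.000469 with TMM scaling. It changed for the summed Crhr1 value of SDS30 against control (-0.00778), at 0.0333 with edgeR, 0.0224 with DESeq2, 0.0105 with depth as a covariate and 0.00759 with the replicate block, and for the summed Crhbp value of that comparison (-0.0262), at 0.00582 with edgeR and 0.00296 with DESeq2.

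With 1 library left out, 10 values crossed 0. In SDS10 against control the summed Crh value ran from -0.0737 to 0.0271 and the summed Crhr1 value from -0.242 to 0.0674. In SDS30 against control the strongest Crh summit ran from -0.000761 to 0.211, the strongest Crhbp summit from -0.218 to 0.00628, and the summed values of Crhbp from -0.2 to 0.0752, of Crhr1 from -0.185 to 0.125 and of Crhr2 from -0.297 to 0.00152. In SDS30 against SDS10 the strongest Crhr1 summit ran from -0.116 to 0.0849, the strongest Crhr2 summit from -0.00454 to 0.123 and the summed Crhr1 value from -0.0539 to 0.191. The cause was not tested.

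Libraries with the same replicate number did not deviate together (r from -0.287 to 0.368 over 11 pairs, 3 of them over 0.1, with 2 libraries closest to their own number), so the numbers were not taken as pairs, and with the replicate block 0 summits were called, as without it. At 5 to 119 reads per member summit and 3 control libraries, small changes may go undetected. Larger ones may also have gone uncalled after adjustment over all summits.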

Other observations

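Marker genes were also set beside the internal cluster of Crhr1, near the start of Gm35469, in a search made after the clusters were seen. Over 13 libraries its log2 sum correlated with the log2 sum of the 7 oligodendrocyte markers that had a summit at Pearson's r = 0.69 (permutation test, p = 0.00936, adjusted p = 0.0421 over 18 relations) and at Spearman's rho = 0.56 (permutation p = 0.0498, adjusted p = 0.19). Without SDS30 replicates 3 and 4, the libraries farthest from the median of the markers, r was 0.54, so that the relation passed by r alone and not by rank. The 5′ sum gave r = 0.06 with the same markers (permutation p = 0.84, adjusted p = 0.886; rho = 0.16, permutation p = 0.592, adjusted p = 0.801; r = -0.03 without those libraries). The difference between these correlations was not tested. The libraries share depth and composition, and these p-values too test only against no correlation.

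Crhbp and Crhr1 stood among the genes whose summed count varied more between libraries of a group than most, and Crh did not. The within-group SD of the log2 sum was 0.32 for Crhr1, above that of 89.1% of genes, 0.28 for Crhbp (84.9%), 0.21 for Crhr2 (75.5%) and 0.13 for Crh (43.4%), beside a median of 0.14 over all genes. Genes with few reads vary more by counting alone, which this ranking does not take out.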
